A study of Homo sapiens with 6 samples.

Results

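Amino acid transporters that cancer cells use to take up leucine, glutamine, cystine and arginine were followed across the libraries as a set of 10 genes, selected by name from the 58735 genes of the deposited table. They are SLC7A5, SLC3A2, SLC7A11, SLC7A1, SLC7A6, SLC7A8, SLC1A5, SLC38A1, SLC38A2 and SLC43A1, and each name had a single row. The set was put together with an earlier result of these libraries known, namely the lower SLC7A5 level under the knockdown label, so the differences between the groups are given as a description of these libraries and not as an independent test. RNA sequencing had been done on 6 libraries of human MB231, by its labels a line of breast cancer cells and presumably short for MDA-MB-231. The 3 control libraries carry the label shNC and the genotype WT, and the other 3 carry the label shPAK5 and the genotype PAK5 knockdown (PAK5 is a serine/threonine kinase of the p21-activated family). How many hairpins or clones were used, and whether replicates were separate cultures, is not given in the sources used here, so the spread between replicates may be technical.

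Most of these proteins are exchangers or sodium-coupled carriers of the plasma membrane. SLC7A5 (LAT1), SLC7A8 (LAT2), SLC7A6 (y+LAT2) and SLC7A11 (xCT) are light chains that reach the cell surface only when disulfide-linked to the heavy chain SLC3A2, the CD98 heavy chain. LAT1 brings in leucine and other large neutral amino acids in exchange for intracellular amino acids, SLC1A5 (ASCT2) exchanges glutamine and other small neutral amino acids, and SLC38A1 and SLC38A2 (SNAT1 and SNAT2) load the cell with glutamine and alanine along the sodium gradient. Leucine entry feeds the mTORC1 kinase pathway, and the transcription factor ATF4 raises several of these carriers when amino acids run short.

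Levels are in FPKM (fragment counts divided by exonic length and by a depth factor of the library), from which 15085168 to 18146091 reads per library could be recovered. PAK5 had 0 reads in all 6 libraries, which allows up to 0.0335 to 0.0403 FPKM in a single library (3 reads, counting error only), so the knockdown could not be checked. Of 9 markers of a mesenchymal breast line 6 had a mean of 1 FPKM or more. These were VIM at 156, CD44 at 58, CAV1 at 55.1, MSN at 33.5, AXL at 20.3 and ZEB1 at 2.41 FPKM. SPARC and FN1 had means of 0.12 and 0.0591 FPKM, and TWIST1 had 0 reads. The sum of the 9 was 304 to 333 FPKM in shNC and 332 to 338 in shPAK5. All 5 markers of simple epithelium were present, with KRT19 at 1438, KRT8 at 980, KRT18 at 839, EPCAM at 118 and CDH1 at 5.24 FPKM. Their sum was between 3323 and 3484 FPKM in shNC and between 3341 and 3394 in shPAK5. Of 5 markers of hormone-responsive breast only XBP1 reached 1 FPKM, at 25.8 FPKM. TFF1 was at 0.482, GATA3 at 0.21 and ESR1 at 0.00373 FPKM, and PGR had 0 reads. None of 5 leukocyte or 4 endothelial markers reached 1 FPKM, and of 6 fibroblast markers only LUM did, at 113 FPKM, with COL1A2 at 0 reads. KRT19, KRT8 and KRT18 thus stood above every listed mesenchymal marker, while SPARC, FN1 and TWIST1 stayed under 1 FPKM. The name of the line rests on the labels, and whether this profile is that of MDA-MB-231 was not tested. The libraries also differed in their balance of GC-rich and GC-poor transcripts: the mean deviation of genes above 54.5% GC minus that of genes below 45.0% GC was 0.19 and 0.11 on the log2 scale in shNC replicates 2 and 3, but -0.10 in shNC replicate 1 and between -0.09 and -0.05 in the 3 shPAK5 libraries.

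Promoter windows are shown for SLC7A5 and SLC3A2, which encode the chains of a single transporter, and for SLC38A2, the most abundant carrier, which lay on the opposite side in the comparison. RefSeq (GRCh38.p14) gave 18 windows of 300 bases, from 250 before to 50 after a start site, for 9 of the 10 genes, all but SLC7A11. Capitals mark matches, on either strand, to the core of the amino acid response element (TGATGNAA), the E-box (CACGTG) and the core of the antioxidant response element (TGACNNNGC), and no matches overlap in these windows. The SLC7A5 window is chr16:87869458-87869757 on the minus strand, that of SLC3A2 is chr11:62881449-62881748 on the plus strand, the third of its 3 windows, and that of SLC38A2 is chr12:46372724-46373023 on the minus strand.
SLC7A5: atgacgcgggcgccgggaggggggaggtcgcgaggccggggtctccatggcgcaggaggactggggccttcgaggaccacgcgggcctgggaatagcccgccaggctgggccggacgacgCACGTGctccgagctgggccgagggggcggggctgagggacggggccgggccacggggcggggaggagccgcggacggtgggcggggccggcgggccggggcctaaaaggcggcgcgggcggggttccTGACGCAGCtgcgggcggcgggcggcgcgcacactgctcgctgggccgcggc
SLC3A2: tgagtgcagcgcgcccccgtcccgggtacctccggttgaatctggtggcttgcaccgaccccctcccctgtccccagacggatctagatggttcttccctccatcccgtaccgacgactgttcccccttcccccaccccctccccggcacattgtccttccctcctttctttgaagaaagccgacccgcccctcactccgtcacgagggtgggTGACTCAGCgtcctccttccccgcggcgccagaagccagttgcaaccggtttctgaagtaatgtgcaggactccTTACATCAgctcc
SLC38A2: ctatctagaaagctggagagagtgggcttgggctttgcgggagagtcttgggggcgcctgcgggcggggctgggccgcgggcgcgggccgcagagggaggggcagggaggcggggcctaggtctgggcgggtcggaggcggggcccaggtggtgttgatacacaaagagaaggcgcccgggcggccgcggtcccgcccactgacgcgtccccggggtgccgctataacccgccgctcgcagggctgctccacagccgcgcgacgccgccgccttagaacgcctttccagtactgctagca

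In the SLC7A5 window the E-box starts at position -130 from the start site and the antioxidant core at position -2. In the SLC3A2 window the antioxidant core starts at position -37 and the amino acid response core, read on the other strand, at position 38. It is the only SLC3A2 window with a match, since those at chr11:62855859-62856158 and chr11:62880646-62880945 hold none. The SLC38A2 window holds none of the 3 strings, and sequence outside the windows was not searched. Among the 18 windows the amino acid response core was found in 4 (of SLC3A2, SLC7A1, SLC1A5 and SLC38A1), the E-box in 4 (of SLC7A5, SLC7A8, SLC1A5 and SLC43A1) and the antioxidant core in 5 (of SLC7A5, SLC3A2, SLC7A1, SLC7A6 and SLC1A5). Over all 35116 windows of the RefSeq table the shares were 3.62%, 7.26% and 13.35%. The SLC1A5 matches lie in its windows at chr19:46784765-46785064 and chr19:46787244-46787543, and its window at chr19:46788545-46788844 holds none. A match describes letters in the window and does not show that a factor binds there.

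Levels of the 10 genes spanned a wide range. SLC38A2, a sodium-coupled carrier of glutamine and alanine, was the most abundant, at 101 ± 11.5 FPKM in shNC and 118 ± 1.90 in shPAK5 (SD, n = 3). SLC7A5 followed, and the 2 genes overlapped in shNC, whereas in shPAK5 every SLC38A2 value lay above every SLC7A5 value. SLC3A2, SLC1A5 and SLC38A1 formed a middle tier between 52.6 and 62.4 FPKM over all 6 libraries, in which all 3 overlapped in shNC, while in shPAK5 SLC38A1 lay above SLC3A2 and SLC3A2 above SLC1A5 without overlap. SLC7A1, the main carrier of arginine and lysine, came next, at 21.6 ± 0.401 and 21.6 ± 0.560 FPKM. The cystine carrier SLC7A11 and the light chain SLC7A6 stood near 5 FPKM and overlapped in shNC. In shPAK5 every SLC7A11 value, from 6.45 FPKM, lay above every SLC7A6 value, up to 5.05 FPKM. SLC43A1 (LAT3) and SLC7A8 (LAT2), further carriers of large neutral amino acids, were far lower, at means over all libraries of 0.0976 and 0.0216 FPKM, against 88.5 FPKM for SLC7A5.

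**Figure D1:**
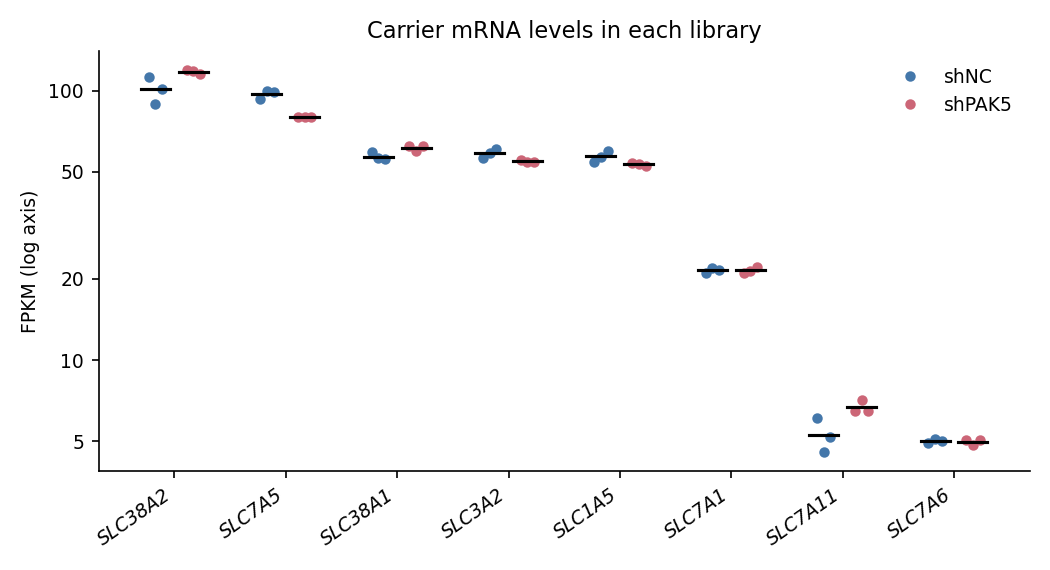
FPKM (log axis) of the 8 carriers with a mean of at least 1 FPKM, with a point for each library, shNC in blue and shPAK5 in red, and a bar at the mean of each group (n = 3). The 3 shPAK5 points of SLC7A5 lie between 79.5 and 79.8 FPKM, below the shNC points at 93.2 to 99.5, while those of SLC38A2 and SLC7A11 lie above their shNC points.

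SLC7A5, the light chain of the leucine transporter, was lower in the libraries labelled shPAK5. It was at 93.2, 99.5 and 99.3 FPKM in shNC replicates 1 to 3 and at 79.5, 79.8 and 79.6 FPKM in shPAK5 replicates 1 to 3. The groups did not overlap, the shPAK5 values lay close together, and shNC replicate 1 was the nearest control. The group means were 97.3 ± 3.56 FPKM for shNC and 79.6 ± 0.120 FPKM for shPAK5 (SD, n = 3), and their ratio was 0.818. On the log2(FPKM + 1) scale the difference was -0.29 ± 0.04 (SE, 95% interval -0.38 to -0.19), which missed the threshold of 0.05 in limma over all 11237 tested genes (adjusted p = 0.0545, lower in 3 of 3 libraries). In limma-voom on the recovered reads, 5699 to 7922 per library, SLC7A5 passed (log2 difference -0.29 ± 0.04, adjusted p = 0.00615). In bulk RNA, fewer cells that express a gene and less of its RNA per cell cannot be told apart.

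That call was lost without some single libraries, in fits that for limma-voom were added after seeing the data. Each of these fits also has fewer libraries, and the part of that in a lost call was not tested. In limma-voom the adjusted p of SLC7A5 was 1.86e-05 without shNC replicate 1 and 0.00123 without shNC replicate 2, but 0.0980 without shNC replicate 3 and 0.0952, 0.0831 and 0.0616 without shPAK5 replicates 1, 2 and 3. In limma it passed without shNC replicate 1 (adjusted p = 0.0225) and not without any of the other 5 libraries (adjusted p = 0.151 to 0.291). Without shNC replicate 1, 8.14% of all tested genes passed in limma and 21.5% in limma-voom. The log2 difference itself stayed between -0.32 and -0.27 in all of these fits.

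SLC3A2, the heavy chain that SLC7A5 needs at the surface, lay in the same direction with a smaller difference. Its values were 56.2, 58.9 and 60.9 FPKM in shNC and 55.2, 54.4 and 54.2 FPKM in shPAK5. The groups did not overlap, with shNC replicate 1 and shPAK5 replicate 1 next to each other. The log2 difference was -0.10 ± 0.04 (SE, limma adjusted p = 0.279, limma-voom adjusted p = 0.240). The ratio of light chain to heavy chain, SLC7A5 over SLC3A2, was 1.66, 1.69 and 1.63 in shNC and 1.44, 1.47 and 1.47 in shPAK5, again without overlap. Its log2 difference was -0.19, with p = 0.1 in the exact two-sided permutation test, the smallest p that 3 against 3 libraries allow, so this design could not reach 0.05. That test shares its contrast with the SLC7A5 difference and is likewise no independent evidence.

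SLC7A11, the light chain that imports cystine in exchange for glutamate and so feeds glutathione synthesis, lay on the other side. It was at 6.11, 4.56 and 5.19 FPKM in shNC and at 6.50, 7.09 and 6.45 FPKM in shPAK5. Every shPAK5 library was above every shNC library, but shNC replicate 1 was closer to the shPAK5 libraries than to shNC replicate 2. The log2 difference was 0.29 ± 0.09 (SE, limma adjusted p = 0.215, limma-voom adjusted p = 0.0677). SLC7A11 transcripts have 35.9% GC, and with the GC correction described below the difference was 0.13 ± 0.05 (limma adjusted p = 0.255). Without shNC replicate 1, SLC7A11 passed in limma (log2 difference 0.39, adjusted p = 0.0337) and not with the GC correction as well (0.15, adjusted p = 0.236). In that limma fit without the GC correction 8.14% of all tested genes passed. Of its exons, 8.97% are overlapped by the antisense gene SLC7A11-AS1, which had 1 to 4 reads per library.

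Relative to SLC3A2, SLC7A11 was at 0.109, 0.0775 and 0.0852 in shNC and at 0.118, 0.130 and 0.119 in shPAK5. Relative to SLC3A2, SLC7A6 was at 0.0878, 0.0867 and 0.0824 in shNC and at 0.0916, 0.0886 and 0.0928 in shPAK5. The ratios to the shared heavy chain thus did not overlap between the groups for these light chains. The SLC7A5 ratio was lower and those of SLC7A11 and SLC7A6 were higher in shPAK5. No share over ratios of other genes was computed, and 23.1% of all tested genes did not overlap as single genes. The ratios carry no GC correction, and SLC3A2 has 55.7% GC against 35.9% for SLC7A11, 48.6% for SLC7A6 and 60.4% for SLC7A5. The SLC7A6 ratio sets a level that overlapped over the lower SLC3A2. SLC7A6, which exchanges cationic against neutral amino acids, was at 4.94, 5.10 and 5.01 FPKM in shNC and at 5.05, 4.82 and 5.03 in shPAK5, and the groups overlapped. Its log2 difference was -0.01 ± 0.05 (SE, 95% interval -0.13 to 0.11, limma adjusted p = 0.921). Exons of SLC7A6 are overlapped over 55.6% of their length, mostly by SLC7A6OS on the other strand, which had a mean of 1.47 FPKM. Reads of overlapping genes cannot be told apart here, since the use of strand is not given in the sources used here.

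**Figure D2:**
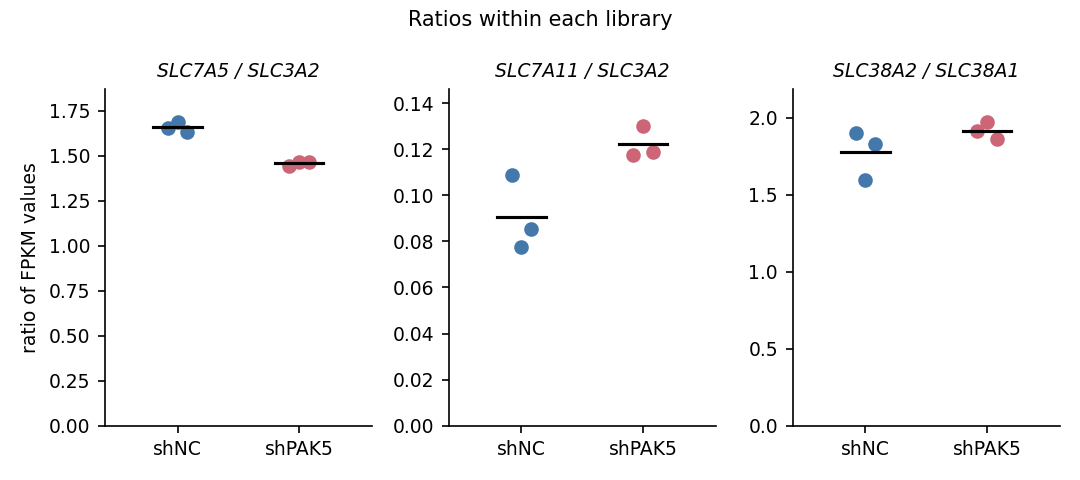
Ratios of FPKM values within each library, for the light chains SLC7A5 and SLC7A11 over their heavy chain SLC3A2 and for SLC38A2 over SLC38A1, with a point per library and a bar at the group mean (n = 3). SLC7A5 over SLC3A2 is 1.63 to 1.69 in shNC and 1.44 to 1.47 in shPAK5, while SLC38A2 over SLC38A1 overlaps between the groups.

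SLC38A2 was at 112, 89.5 and 102 FPKM in shNC and at 119, 118 and 116 FPKM in shPAK5. The shPAK5 values were higher without overlap, and the shNC values were widely spread, with replicate 1 next to the shPAK5 libraries. The log2 difference was 0.22 ± 0.08 (SE, limma adjusted p = 0.228, limma-voom adjusted p = 0.0855), and 0.11 ± 0.04 with the GC correction (limma adjusted p = 0.190). Without shNC replicate 1 it was 0.30 and passed in limma (adjusted p = 0.0348), where 8.14% of all tested genes passed. With the GC correction as well, SLC38A2 was at 0.13 and did not pass (limma adjusted p = 0.144). In limma without shNC replicate 2, the lowest library, the difference was 0.14 (adjusted p = 0.380).

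SLC38A1, the other glutamine carrier of the family, is the next gene to SLC38A2 on chromosome 12, with 88171 bp and no annotated gene between them. It was at 59.2, 56.1 and 55.6 FPKM in shNC and at 62.4, 59.9 and 62.1 FPKM in shPAK5, without overlap, although shNC replicate 1 and shPAK5 replicate 2 were close. The log2 difference was 0.11 ± 0.04 (SE, limma adjusted p = 0.259), and 0.05 ± 0.03 with the GC correction (limma adjusted p = 0.449). The ratio of SLC38A2 to SLC38A1 was 1.77 ± 0.159 in shNC and 1.92 ± 0.0532 in shPAK5 (SD, n = 3), and the groups overlapped.

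SLC1A5, the glutamine exchanger whose substrate can leave again through SLC7A5 in trade for leucine, followed SLC3A2 closely. It was at 54.5, 56.8 and 59.8 FPKM in shNC and at 53.8, 53.5 and 52.6 FPKM in shPAK5, without overlap but with shNC replicate 1 and shPAK5 replicate 1 close together. The log2 difference was -0.10 ± 0.04 (SE, 95% interval -0.20 to 0.01, limma adjusted p = 0.3201), and -0.06 without shNC replicate 3. Of its exonic bases, 23.8% are overlapped, almost all by AC008622.2, which was at 0.0464 to 0.194 FPKM. SLC7A1, which needs no heavy chain, was at 21.1, 21.9 and 21.6 FPKM in shNC and at 21.1, 21.5 and 22.2 in shPAK5, with overlapping groups. Its log2 difference was 0.00 ± 0.04 (SE, 95% interval -0.09 to 0.10, limma adjusted p = 0.974).

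SLC43A1 had 10, 7 and 8 reads in shNC and 3, 4 and 3 reads in shPAK5, that is 0.161, 0.118 and 0.136 FPKM against 0.0468, 0.0669 and 0.0563 FPKM. The groups did not overlap, on very few reads, and the gene lay under the filter of a mean of 1 FPKM. Pooled over libraries the ratio of shPAK5 to shNC was 0.407, with a 95% exact binomial interval of 0.174 to 0.877 that covers counting error only. SLC7A8 had 1, 2 and 3 reads in shNC and 0, 6 and 1 reads in shPAK5, with a pooled ratio of 1.19 (0.341 to 4.27), and no difference was detectable at this depth. In limma without the filter, over 26316 genes, the adjusted p was 0.373 for SLC43A1 and 0.966 for SLC7A8.

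Of the 10 genes 8 were tested, and none passed in limma, where 0.116% of all tested genes did (0.0890% higher and 0.0267% lower in shPAK5). At an unadjusted p under 0.05 there were 5 of 8 in limma, against 17.0% of all tested genes. In limma-voom 1 of 8 passed, SLC7A5, against 1.04% of all genes in either direction and 0.196% that were lower. The groups did not overlap for 3 of the 8 upward (SLC7A11, SLC38A2 and SLC38A1), against 12.6% of all tested genes, and for 3 downward (SLC7A5, SLC3A2 and SLC1A5), against 10.5%, or 6 of 8 in either direction against 23.1%. The median log2 difference was 0.00 over the 8 members, as over all tested genes, with a range from -0.29 to 0.29. Since the genes were chosen with this contrast known, nothing is read from these counts.

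The sum of the 10 genes hardly differed, from 392 to 409 FPKM in shNC and from 398 to 403 FPKM in shPAK5, whereas its makeup did. SLC7A5 made up 24.2 ± 1.25% of the sum in shNC and 19.9 ± 0.153% in shPAK5 (SD, n = 3). SLC38A2 made up 22.8 to 27.6% in shNC and 29.1 to 29.6% in shPAK5. For both genes the shares did not overlap between the groups, and shNC replicate 1, with SLC38A2 at 27.6%, was the nearest control. The shares restate the SLC7A5 and SLC38A2 differences given above, and as parts of the same sum they depend on each other. They carry no GC correction and were not tested.

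**Figure D3:**
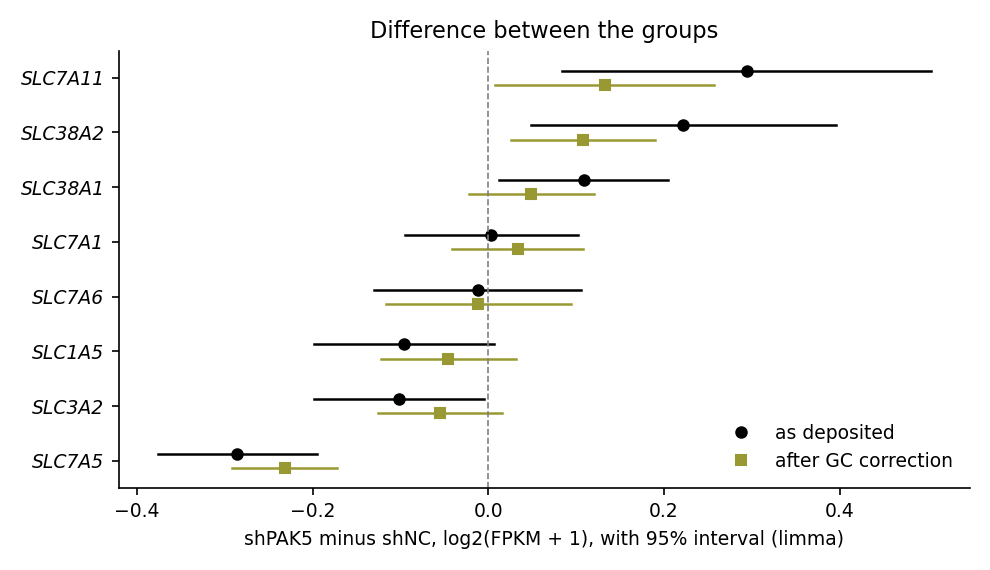
Difference between shPAK5 and shNC on the log2(FPKM + 1) scale for the 8 tested carriers, with the 95% interval from limma (3 against 3 libraries), as deposited (black circles) and after the GC correction (olive squares). SLC7A5 is at -0.29 as deposited and -0.23 after it, whereas SLC7A11 goes from 0.29 to 0.13 and SLC38A2 from 0.22 to 0.11.

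Among the 8 tested members the direction ran with the GC content of their transcripts. The 3 of the 8 with the least GC, SLC7A11 at 35.9%, SLC38A2 at 38.8% and SLC38A1 at 43.3%, were the 3 that were higher in shPAK5 without overlap. The 3 of the 8 with the most GC, SLC3A2 at 55.7%, SLC1A5 at 58.8% and SLC7A5 at 60.4%, were the 3 that were lower without overlap. SLC7A6 at 48.6% and SLC7A1 at 53.3% lay between them and overlapped. SLC43A1, below the filter, has 59.7% GC and was also lower without overlap, on 3 to 10 reads per library. SLC7A8, likewise below the filter, has 54.3% GC and overlapped. All tested genes showed a trend of the same kind, since the median log2 difference was 0.12 over 1156 genes with 35 to 40% GC and -0.05 over 1389 genes with 60 to 65% GC.

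Against genes of like GC content the members stood as follows. Of the 1389 genes with 60 to 65% GC, 36 had a more negative difference than SLC7A5. Of the 1830 genes with 55 to 60% GC, 525 were more negative than SLC3A2 and 562 more negative than SLC1A5. Of the 1156 genes with 35 to 40% GC, 8.30% were more positive than SLC7A11 and 19.1% more positive than SLC38A2.

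A GC correction, chosen after seeing the data, subtracted from each library its smoothed trend on GC content. The SLC7A5 difference was then -0.23 ± 0.03 (SE) and passed in limma (adjusted p = 0.0186), where 0.507% of all genes passed and 0.116% were lower, and no other member did. With the correction and any single library left out SLC7A5 did not pass (adjusted p = 0.0507 to 0.119). The differences of SLC3A2 and SLC1A5 were -0.06 ± 0.03 and -0.05 ± 0.03 after the correction (limma adjusted p = 0.392 and 0.528). The part of GC content in the remaining differences was not tested.

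**Figure D4:**
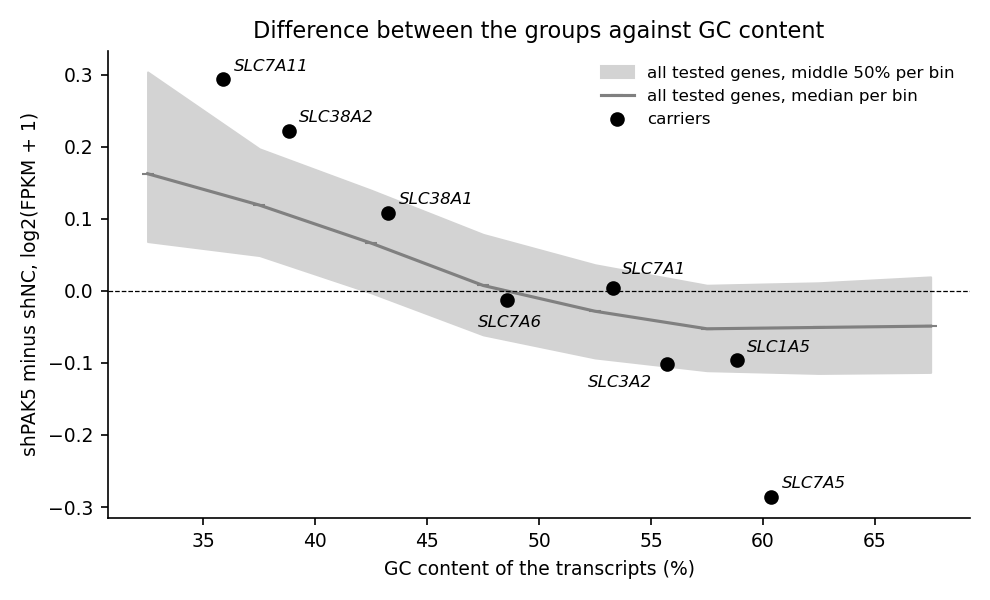
Difference between shPAK5 and shNC on the log2(FPKM + 1) scale against the GC content of the transcripts in percent, for the 8 tested carriers (points) and for all tested genes in bins of 5% (line at the median, band over the middle 50%). The median of all genes goes from 0.16 at 30 to 35% GC to -0.05 at 65 to 70%, and SLC7A5 lies below the band at 60.4%.

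Other amino acid carriers were taken from a list of 41 genes. Of these 14 had no read in any library, 14 had reads but under 1 FPKM, and 13 were tested, none of which passed in limma or limma-voom, with 3 of the 13 at an unadjusted limma p under 0.05, against 17.0% of all tested genes. The most abundant were SLC38A10, with a mean of 17.6 ± 0.885 FPKM in shNC against 17.1 ± 0.109 in the other group (SD, n = 3), and SLC7A7 (y+LAT1), another partner of SLC3A2, at 14.1 ± 0.278 and 15.8 ± 1.05 FPKM. SLC7A7 was at 13.8, 14.1 and 14.4 FPKM in shNC and at 14.6, 16.3 and 16.5 in shPAK5, a log2 difference of 0.15 ± 0.06 (limma adjusted p = 0.256). With 51.1% GC it kept that size after the GC correction (0.16 ± 0.05, limma adjusted p = 0.158). The carrier SLC36A4 had a log2 difference of 0.24 ± 0.09 (limma adjusted p = 0.250), and of 0.08 ± 0.06 with the GC correction. The taurine carrier SLC6A6 was at 10.1 ± 0.368 and 9.13 ± 0.125 FPKM, without overlap (log2 difference -0.13 ± 0.05, limma adjusted p = 0.251).

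None of the 21 tested genes of the amino acid starvation response passed in limma or limma-voom, and 6 had an unadjusted limma p under 0.05, against 17.0% of all tested genes. Their differences were negative in 13 and positive in 8, with a median of -0.06 against 0.00 over all tested genes, and the groups did not overlap for 6, all lower in shPAK5, against 10.5% of all tested genes that were lower without overlap. ATF4, the transcription factor of that response, was at 104, 107 and 105 FPKM in shNC and at 93.5, 94.2 and 96.9 in shPAK5, without overlap. Its log2 difference was -0.15 ± 0.03 (SE, limma adjusted p = 0.171, limma-voom adjusted p = 0.0989), and -0.10 ± 0.03 with the GC correction (adjusted p = 0.156). PYCR1, an enzyme of proline synthesis, was at 36.5 ± 1.88 and 31.7 ± 0.901 FPKM (log2 difference -0.20 ± 0.05, limma adjusted p = 0.178). SHMT2, which makes glycine from serine in mitochondria, overlapped between the groups at 50.5 ± 2.27 and 45.9 ± 2.82 FPKM (SD, n = 3, log2 difference -0.14 ± 0.06). With the GC correction the differences of PYCR1 and SHMT2 were -0.14 ± 0.03 and -0.09 ± 0.04 (limma adjusted p = 0.102 and 0.335). ATF4, PYCR1 and SHMT2 have 55.3%, 62.4% and 57.4% GC, in the range where all genes had a negative median. The GC content of the whole list was not compared with that of all genes.

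Of 36 tested genes of amino acid sensing by mTORC1 none passed in limma or limma-voom, and 6 had an unadjusted limma p under 0.05, against 17.0% of all tested genes, with a median difference of -0.02. EIF4EBP1, the translation repressor that mTORC1 inactivates, was at 115, 129 and 129 FPKM in shNC and at 111, 106 and 114 FPKM in shPAK5 (log2 difference -0.17 ± 0.06, limma adjusted p = 0.222). Its transcripts have 62.6% GC, and with the GC correction the difference was -0.11 ± 0.03 (limma adjusted p = 0.157). LAMTOR1, an anchor of the pathway on lysosomes, was at 52.6 ± 1.69 and 52.3 ± 1.46 FPKM (SD, n = 3). FNIP1, a partner of folliculin, had a log2 difference of 0.25 ± 0.06 (limma adjusted p = 0.180), and of 0.16 ± 0.04 with the GC correction. WDR59, a subunit of GATOR2, had a log2 difference of -0.20 ± 0.06 (limma adjusted p = 0.214). The groups did not overlap for either gene.

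Among 18 tested genes that metabolise the transported amino acids none passed in limma, with 5 at an unadjusted p under 0.05, against 17.0% of all tested genes. DBT, a subunit of the complex that breaks down branched-chain keto acids, was at 1.78 ± 0.194 and 2.44 ± 0.0658 FPKM (SD, n = 3) and rose in limma-voom (adjusted p = 0.0256), where 0.845% of all genes rose, and not in limma (adjusted p = 0.171) or with the GC correction (adjusted p = 0.160). DBT transcripts have 39.1% GC, in the range where all genes had a positive median. GPX4, the glutathione-dependent lipid peroxidase, was at 192 ± 12.5 and 184 ± 2.66 FPKM, and ODC1, the first enzyme of polyamine synthesis, at 61.1, 62.7 and 58.1 FPKM in shNC and 56.1, 57.5 and 54.3 in shPAK5 (log2 difference -0.11 ± 0.04, limma adjusted p = 0.264).

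Of 16 tested regulators and partners of the carriers none passed in limma or limma-voom, and 4 had an unadjusted limma p under 0.05, against 17.0% of all tested genes. BSG (basigin) and ITGB1 (integrin beta 1), membrane proteins that associate with the CD98 heavy chain, overlapped between the groups, with control means of 191 ± 3.47 FPKM for BSG and 152 ± 6.54 for ITGB1 and shPAK5 means of 197 ± 3.77 and 157 ± 1.11 (SD, n = 3). CD44, a surface receptor reported to stabilise SLC7A11, was at 57.6, 53.7 and 54.4 FPKM in shNC and at 61.5, 59.8 and 61.3 in shPAK5 (log2 difference 0.14 ± 0.04, limma adjusted p = 0.214).

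The profile of SLC7A5 over the 6 libraries was compared with that of 6280 protein-coding genes at a mean of at least 5 FPKM, by the root mean square distance between log2(FPKM + 1) values centred on each gene's mean. The 5 nearest were DDX39A, an RNA helicase of mRNA export, at a distance of 0.0246, CDC42EP1, an effector of the GTPase CDC42, at 0.0272, SCARB1, a receptor of high-density lipoprotein, at 0.0317, THOC6, a subunit of the THO complex, at 0.0330, and FGFRL1, a receptor-like protein that binds fibroblast growth factors, at 0.0338, against a median distance of 0.157. The SLC7A5 profile itself had a root mean square size of 0.146, so a flat gene would lie near that median. The distance includes the group difference, so lower shPAK5 levels of the nearest genes follow from how they were picked. Their values are a description and no separate evidence. DDX39A was at 35.8, 36.4 and 37.9 FPKM in shNC and at 29.8, 29.8 and 30.5 FPKM in shPAK5 (log2 difference -0.28 ± 0.04, limma adjusted p = 0.0657, limma-voom adjusted p = 0.0164). All 5 had between 57.7% and 64.9% GC.

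Pseudogenes named after SLC7A5 bear on its count, because reads of near-identical copies can be divided between them. SLC7A5P1 had 10 to 20 reads per library, at 1.23 to 2.12 FPKM, and SLC7A5P2 had 0 reads in all 6 libraries. The SLC7A5 gene spans 87830023 to 87869488 of chromosome 16 (GRCh38, minus strand), with 4745 bp of exons in 11 blocks, of which 5.71% are overlapped by AC126696.2, listed at 0 in 5 of the libraries.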

How the data were processed

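The authors deposited a single table of FPKM per gene for the 6 libraries, with gene coordinates and lengths, per the file headers. Per the labels, an NEBNext Ultra kit was used for library preparation. For the aligner, the counter and the strand setting, the sources used here give no name. The submitters' processing notes name the build mm10, but all 58735 gene IDs are human and matched GENCODE 29 (GRCh38) in ID and exonic length, and no mouse ID was present.

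FPKM times gene length gave whole multiples of a step per library (within 0.001) for 100% of values, which are the recovered reads. Mitochondrial genes held 11.8 to 12.8% of them. Replicates of a group differed by more than counting error in a chi-square test (2.32 to 9.31 per degree of freedom, 13710 genes with 60 or more reads). Tests used limma (version 3.58.1, R 4.3.3, eBayes with trend) on log2(FPKM + 1), which understates changes of low genes, for 11237 genes whose mean reached 1 FPKM, with Benjamini-Hochberg adjustment at 0.05. limma-voom used the recovered reads with the authors' scaling. GC content was taken over all GENCODE 29 transcripts of a gene, and the GC correction, added after seeing the data, subtracted a loess curve (span 0.3) per library. The scripts were tested on simulated data.

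The members, gene lists and tests were chosen with earlier results of these data known. Named genes were all 10 members, in each list up to 4 past the threshold, the 2 most abundant and the 2 with the lowest limma p, and the 5 nearest to SLC7A5. DBT also passed in limma-voom. A gene that the rule names in the metabolism list is not reported here. AC008622.2, AC126696.2, SLC7A6OS, SLC7A11-AS1 and the pseudogenes were named after their values were seen. Figures were drawn with matplotlib 3.10.9 in Python 3.11.15.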

Additional observations from a re-analysis of the deposited data

How the results depend on the processing

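SLC7A5 was lower in shPAK5 in all 33 alternatives, with log2 differences from -0.32 to -0.22 and adjusted p from 1.86e-05 to 0.291. It passed in 11 of them: at a mean of at least 5 FPKM, with robust eBayes, among protein-coding genes only and in limma-voom (each -0.29), with quantile normalization (-0.27), arrayWeights (-0.31), the GC correction (-0.23) and the GC correction with limma-voom (-0.22), and in 3 fits without a library. Without single libraries it ranged from -0.32 to -0.27 with limma as with limma-voom, and from -0.24 to -0.23 with the GC correction. The SLC7A5 to SLC3A2 ratio kept its direction in all 8 alternatives (log2 difference -0.20 to -0.17, exact permutation p from 0.1 to 0.25, none of which could pass).

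The count of 13 genes was 7 without the filter, 31 at a mean of at least 5 FPKM, 20 with quantile normalization, 117 in limma-voom, 64 among protein-coding genes, 3187 with arrayWeights, 57 with the GC correction and 250 with the GC correction in limma-voom. Same-numbered libraries did not deviate together (r from -0.0239 to 0.0654 over 3 pairs, and 1 of 3 shPAK5 libraries correlated best with its own number), so the numbers were not taken as pairs. With the replicate block the count was 2, no member passed and SLC7A5 had an adjusted p of 0.133. Without single libraries the count was 2 to 915 in limma (915 without shNC replicate 1), 6 to 2415 in limma-voom (2415 without the same library, 137 without shNC replicate 2) and 5 to 18 with the GC correction. The 0 members past the threshold became 1, SLC7A5, in 7 alternatives with all libraries, and 6 with arrayWeights, where 28.4% of all genes passed. Without single libraries they were 0 to 3 in limma, 0 to 6 in limma-voom and 0 with the GC correction, the highest counts being those without shNC replicate 1, where 8.14% and 21.5% of all genes passed. The GC and limma-voom fits without single libraries were chosen after seeing the data.

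The signs of SLC7A1 and SLC7A6, both near 0, turned. For SLC7A1 the log2 difference was -0.0044 with quantile normalization and -0.0033 with arrayWeights, and ranged from -0.016 to 0.019 in limma and from -0.017 to 0.020 in limma-voom without single libraries (-0.012 without shNC replicate 1). For SLC7A6 the ranges were -0.023 to 0.0058 in limma, -0.028 to 0.0074 in limma-voom and -0.026 to 0.0067 with the GC correction (0.0042 without shNC replicate 2). SLC43A1 and SLC7A8 could be fitted only without the filter. The causes were not tested. Depth limited SLC43A1 and SLC7A8, with at most 10 reads in a library.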
